A study of Mus musculus with 13 samples.

Results

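The mitochondrial carrier family comprised every probe of the array whose gene symbol was Slc25a followed by a digit, or Ucp1, Ucp2 or Ucp3, with the citrate carrier Slc25a1 set apart. This gave 63 probes for 42 genes among the 25697 probes of the table. The RNA came from proximal small intestine, taken from 13 male mice of the C57BL/6J strain, and each mouse had its own bead array (Illumina MouseRef-8 v2.0). The 8 control mice ate regular chow, and the 5 ezetimibe mice ate chow to which 0.005% ezetimibe had been added, a drug that binds the sterol transporter NPC1L1 of the gut and lowers cholesterol absorption. The control mice are called wild type in the series' own text, which names no transgene or deleted gene in either group. The comparison asked which genes of the proximal gut differed in mice fed ezetimibe. Each array is labelled a biological replicate, the labels give neither the age of the mice nor the time on the drug, and the tissue was taken whole. In such bulk tissue, fewer cells of a type and less RNA per cell cannot be told apart.

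Mitochondrial carriers are small proteins of the inner mitochondrial membrane, built from a repeated pair of membrane helices, that exchange metabolites between the cytosol and the matrix. They carry ADP and ATP, phosphate, amino acids, carboxylates, carnitine esters, nucleotides, cofactors and metals, while the uncoupling proteins return protons or metabolites across the membrane. The absorptive cells of the small intestine burn glutamine and other amino acids, make citrulline and ornithine in their mitochondria, and re-esterify fatty acids from the diet, so several carrier routes are in use in this epithelium.

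Slide 1 held 4 arrays from control and 2 from ezetimibe mice, and slide 2 held 4 and 3. Each array detected between 34 and 42 of the 63 carrier probes, where detection means a detection p under 0.05 against the array's negative controls. The median probe signal of an array lay between 120.7 and 152.8, and the number of arrays sets the precision of what follows. The enterocyte markers Vil1, Sis and Apoa4 were detected on all 13 arrays, whereas the probes for Fabp1 and Fabp2, also enterocyte genes, were detected on none. Levels are log2 intensities after background correction and quantile normalization, and a slide-adjusted level has the fitted difference between the slides removed. A level belongs to its own probe, since bead probes differ in brightness, and no probe's level is set against another's.

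Most of the family was measurable in this tissue. Of the 63 probes, 31 were detected on all 13 arrays, 7 on 5 to 12 arrays, 12 on 1 to 4 arrays and 13 on no array. A probe entered the test when it was detected on at least 5 of the 13 arrays, whatever their group, which 38 carrier probes for 28 genes did. That is 60.3% of the carrier probes, beside 46.3% of all probes of the table. Detection on every array applied to 34.7% of all probes, detection on none to 31.6%, and probes for 23 of the carrier genes were seen on every array.

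Among the 14 genes with no tested probe were several known mainly from other tissues. Slc25a4, the ADP/ATP carrier known from heart and skeletal muscle, had a probe that was detected on 0 arrays, with signals from 106.2 to 132.7. Slc25a31, the ADP/ATP carrier known from testis, had 1 probe detected on 0 arrays and 1 detected in 0 of 8 control mice and 2 of 5 ezetimibe mice. The slide-adjusted levels of the latter overlapped, from 4.267 to 4.546 in controls and from 4.292 to 4.893 in ezetimibe mice. Ucp1, the uncoupling protein of brown fat, was detected on 0 arrays with signals from 102.1 to 141.4, and Ucp3, known from muscle, was detected on 1 array by 1 probe and on 0 by the other. The aspartate/glutamate carrier Slc25a13, known from liver, was detected on 1 array by 1 probe and on 0 by the other, with signals that did not exceed 147.1. The glutamate carrier Slc25a22 was detected in 2 of 8 control mice and in none of the 5 ezetimibe mice. Its slide-adjusted levels overlapped, from 4.293 to 4.863 in controls and from 4.133 to 4.541 in ezetimibe mice. The other untested genes were Slc25a18, Slc25a21, Slc25a23, Slc25a27, Slc25a29, Slc25a40, Slc25a41 and Slc25a46. A probe that is not detected bounds the signal of that probe only, and a transcript that the probe does not match would be missed.

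**Figure D1:**
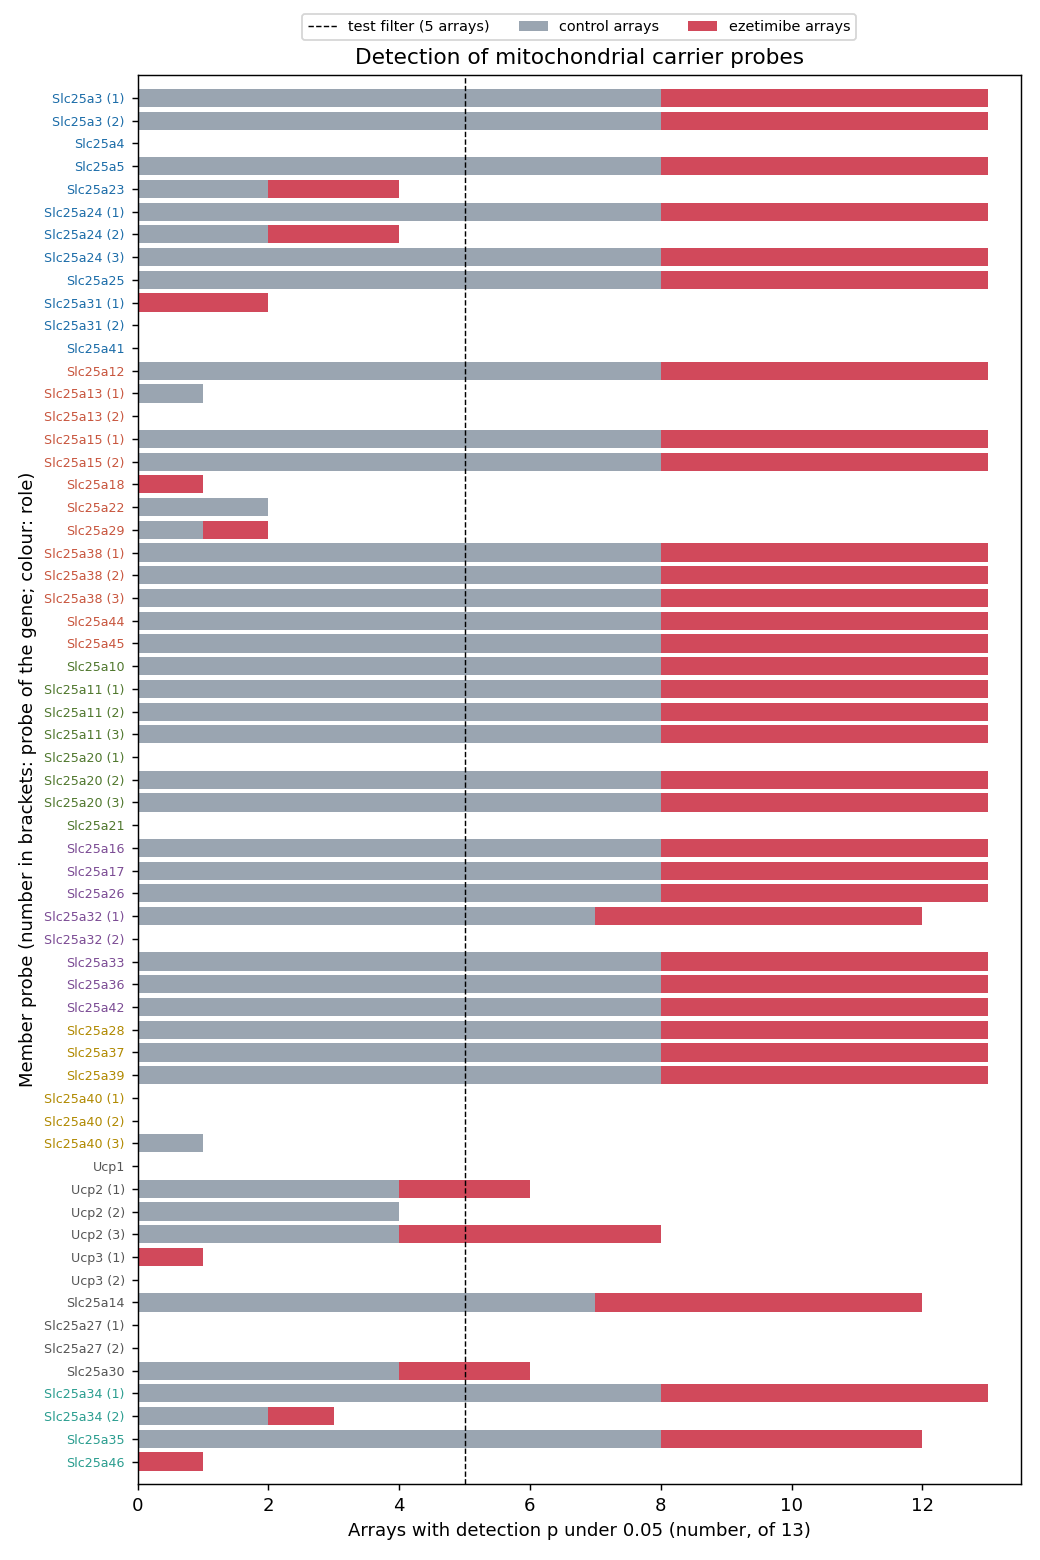
Number of arrays (of 13) on which each carrier probe reported here was detected at a detection p under 0.05, control arrays in grey and ezetimibe arrays in red. The dashed line marks the 5 arrays needed for the test. Most probes sit at all 13 arrays or at 4 and fewer, and 13 probes have no bar.

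No carrier probe rose and none fell in ezetimibe mice at an adjusted p under 0.10. Among all 11887 tested probes, limma with slide in the model called 30, which is 0.252%, with 0.236% up and 0.0168% down. A count of 0 among 38 carriers is near that background, but the citrate carrier Slc25a1 was left out of that count beforehand. Slc25a1 passed on 1 of its 2 probes, and the members were chosen with earlier results of these data known. The 0 therefore does not hold for the whole family. Log2 fold changes of the carriers, ezetimibe minus control, ran from -0.34 for Slc25a36 to 0.45 for Slc25a44, and 18 were above 0 and 20 below. The share above 0 was 47.4% of carriers and 49.7% of all tested probes. The median was -0.0069 for the carriers and -0.0010 for all tested probes. The median size of the change, whatever its sign, was 0.107 for the carriers and 0.0918 for all tested probes. The lowest adjusted p of the family by limma was 0.311.

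At an unadjusted limma p under 0.05, 5 of the 38 carrier probes were higher in ezetimibe mice and 0 were lower. This is 13.2% of the carriers, beside 6.18% of all tested probes, of which 3.68% were higher and 2.5% lower. These 5 probes belonged to Slc25a44, Slc25a37, Slc25a20, Slc25a34 and Slc25a24, and none passed after adjustment. No carrier had all ezetimibe arrays above all control arrays, and none had all below, where 0.496% and 0.126% of tested probes did. On the 2 slides taken apart, 55.3% of carriers kept the sign of their difference, beside 54.9% of all tested probes.

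The intervals below are for single probes, whereas calls were adjusted over all tested probes. They therefore do not give the size of change that the test would miss, and an interval can exclude 0 without a call, as for Slc25a44. They bound the change in probe signal, which for dim probes such as those of Ucp2 and Slc25a30 limits what can be seen. The 95% intervals of 26 carriers lay wholly within 0.5 log2 units of no change, and those of all 38 lay within 1. The furthest bounds were -0.69, for Slc25a36, and 0.72, for Slc25a44. The median residual standard deviation was 0.222 for the carriers and 0.228 for all tested probes.

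**Figure D2:**
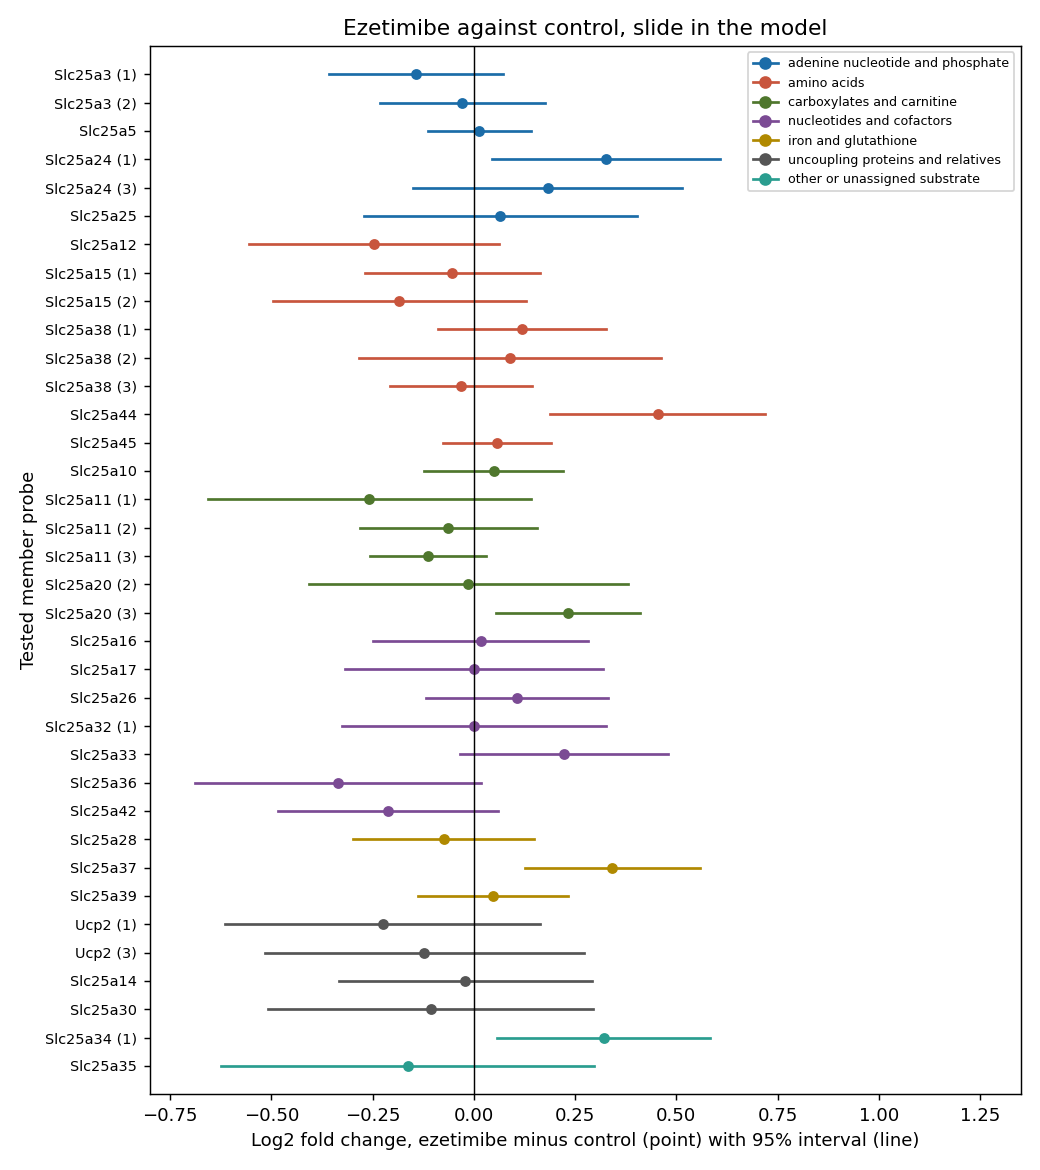
Log2 fold change of each tested carrier probe reported here, ezetimibe minus control, with its 95% interval from limma with slide in the model. Colours give the substrate class, and a number in brackets gives the probe where a gene has several. The points lie between -0.34 and 0.45 around the line at 0, and every interval ends within 1 log2 unit of it.

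The amino acid carriers held the member with the smallest p. Slc25a44, which brings branched-chain amino acids into mitochondria, had slide-adjusted levels of 9.63, 9.81, 9.76, 9.94 and 9.82 in the 5 ezetimibe arrays, while the 8 control arrays ran from 8.91 through a median of 9.33 to 9.68. In 4 of the 5 ezetimibe arrays the level lay above the highest control, and the first overlapped the upper controls. The mean was 9.79 ± 0.11 (SD, n = 5) against 9.34 ± 0.28 (SD, n = 8). The difference was 0.45 ± 0.12 log2 units (SE), with a limma adjusted p of 0.311 and a 95% interval from 0.19 to 0.72. It was 0.34 on slide 1 and 0.54 on slide 2. The adjusted p did not pass the threshold of 0.10, so the separation was not called a change.

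Slc25a12, the aspartate/glutamate carrier that feeds the malate-aspartate shuttle, lay on the other side of 0. Its ezetimibe levels were 5.08, 5.45, 5.27, 5.23 and 5.53, and the controls ran from 5.23 through a median of 5.52 to 5.92. The groups overlapped, with 2 ezetimibe arrays below the lowest control. The difference was -0.25 ± 0.15 (SE; limma adjusted p = 0.844).

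Slc25a15, the ornithine/citrulline carrier of the urea cycle and of gut citrulline synthesis, was measured by 2 probes. The ezetimibe levels of ILMN_2643032 were 11.02, 10.58, 10.73, 10.91 and 10.98, against controls from 10.75 through 10.79 to 11.20. Those of ILMN_3163476 were 8.89, 8.04, 8.19, 8.83 and 8.27, against controls from 8.35 through 8.62 to 8.95. On each probe the ezetimibe arrays fell on both sides of the control median. In 2 of them on ILMN_2643032 and 3 on ILMN_3163476 the level lay below the lowest control. The differences were -0.053 ± 0.10 and -0.18 ± 0.15 (SE; limma adjusted p = 0.965 and 0.892). The second was -0.057 without ezetimibe array 2 and -0.32 without ezetimibe array 1, so single arrays set its size. Slc25a45, a relative of the amino acid carriers, was among the steadiest members, with 12.74 ± 0.088 (SD, n = 8) in controls and a difference of 0.057 ± 0.063. The 3 probes of the glycine carrier Slc25a38, which serves heme synthesis, gave 0.12, 0.088 and -0.031. Of the 8 amino acid carrier probes tested, 4 were above 0 and 4 below, with a median of 0.013.

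Among the carboxylate and carnitine carriers, Slc25a20 stood out by 1 of its probes. Slc25a20 exchanges acylcarnitines for carnitine and so brings long-chain fatty acids to oxidation. On ILMN_3138499 the ezetimibe levels were 11.68, 11.75, 11.61, 11.97 and 11.86, and the controls ran from 11.32 through 11.59 to 11.68. All ezetimibe arrays were above the control median, and 3 were above the highest control. The difference was 0.23 ± 0.08 (SE; limma adjusted p = 0.694). On the second tested probe, ILMN_3061070, the ezetimibe levels were 8.73, 8.16, 7.51, 8.35 and 8.19 and the controls ran from 7.86 through 8.14 to 8.79. There the ezetimibe arrays spanned the control range, with a difference of -0.013 ± 0.19 (SE; limma adjusted p = 0.997), and the 2 probes of the gene did not give the same picture. The third probe, ILMN_2664821, was detected on 0 arrays.

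The dicarboxylate carrier Slc25a10, which exchanges malate or succinate for phosphate, had ezetimibe levels of 11.07, 11.40, 11.14, 11.13 and 11.17 against controls from 10.98 through 11.13 to 11.30. The groups overlapped, with 1 ezetimibe array above the highest control, and the difference was 0.050 ± 0.081 (SE; limma adjusted p = 0.958). Slc25a11, the oxoglutarate/malate carrier of the malate-aspartate shuttle, was measured by 3 probes with differences of -0.26 ± 0.19, -0.063 ± 0.10 and -0.11 ± 0.07 (SE; limma adjusted p from 0.846 to 0.959). The first of these was -0.14 without ezetimibe array 3 and -0.41 without ezetimibe array 1. On ILMN_3010110 the ezetimibe levels were 10.59, 10.66, 10.50, 10.77 and 10.69, against controls from 10.67 through 10.75 to 10.93. In 3 ezetimibe arrays that probe lay below the lowest control, and the other two overlapped the controls. Its 95% interval ran from -0.26 to 0.030. Over the class, 2 of 6 tested probes were above 0 and 4 below, with a median of -0.038.

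The iron and glutathione carriers included the member with the second smallest p. Slc25a37, mitoferrin-1, imports iron for heme synthesis and is best known from red cell precursors. Its ezetimibe levels were 8.01, 8.09, 7.92, 8.10 and 8.23, and the controls ran from 7.51 through 7.74 to 7.94. In 4 of the 5 ezetimibe arrays the level was above the highest control, and the third array reached just under it. The difference was 0.34 ± 0.10 (SE; limma adjusted p = 0.389), with a 95% interval from 0.13 to 0.56. It was 0.31 on slide 1 and 0.36 on slide 2.

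Red cell markers were also higher on average in the ezetimibe arrays. The mean level of 3 tested markers, Hba-a1, Hbb-b1 and Alas2, ran from 6.40 to 7.42 in controls and from 7.04 to 7.79 in ezetimibe mice. The other 3 red cell markers on the array, Eraf, Slc4a1 and Epb42, were detected on 1, 1 and 0 arrays. The alpha-globin gene Hba-a1 differed by 1.30 ± 0.30 (SE; limma adjusted p = 0.146). Hbb-b1 and Alas2 were dim, detected on 6 and 10 arrays, and differed by 0.25 ± 0.19 and 0.39 ± 0.19 (SE; limma adjusted p = 0.880 and 0.807). The mean level of the 3 markers was then added as a further term in the model, a setting added after the data were seen. With it, the difference was 0.37 for Slc25a37 and 0.22 for Slc25a44 (limma adjusted p = 0.997 for both). The marker level itself averaged 6.92 in controls and 7.57 in ezetimibe mice, so this fit cannot cleanly separate it from the group. Slc25a28, mitoferrin-2 of other tissues, gave -0.075 ± 0.10. Slc25a39, which carries glutathione into mitochondria, had ezetimibe levels of 10.35, 10.41, 10.23, 10.45 and 10.50 against controls from 10.10 through 10.33 to 10.60. All of its ezetimibe arrays lay within the control range, with a difference of 0.046 ± 0.087 (SE; limma adjusted p = 0.964).

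**Figure D3:**
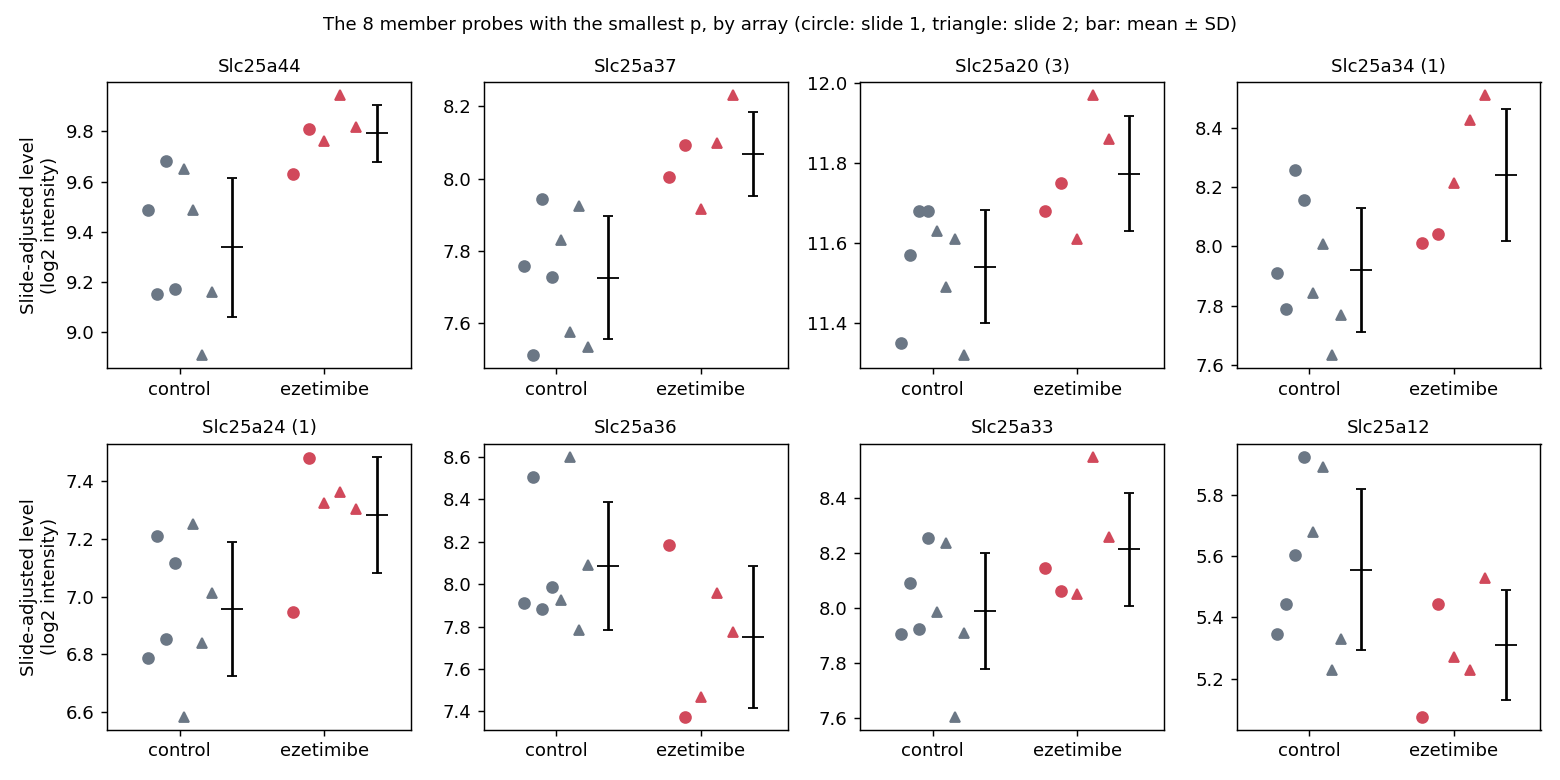
Slide-adjusted level (log2 intensity) of the 8 carrier probes with the smallest p, by array, controls in grey and ezetimibe in red, circles for slide 1 and triangles for slide 2, with the mean ± SD of each group. Each panel has its own axis. The groups overlap in all 8 panels, and for Slc25a44, Slc25a37 and Slc25a24 4 of 5 ezetimibe arrays lie above the highest control.

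The adenine nucleotide and phosphate carriers supply oxidative phosphorylation. Slc25a5, the ADP/ATP carrier of most dividing and epithelial cells, had ezetimibe levels of 14.07, 13.91, 13.95, 14.10 and 14.04, with controls from 13.84 through 14.02 to 14.09. The 2 groups lay over each other, at 14.02 ± 0.08 (SD, n = 5) and 14.00 ± 0.09 (SD, n = 8). The difference was 0.013 ± 0.060 (SE; limma adjusted p = 0.985), and its 95% interval, from -0.11 to 0.14, was the narrowest of the family.

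Slc25a3, the phosphate carrier, was measured by 2 probes. The ezetimibe levels were 11.17, 11.09, 11.15, 11.00 and 11.35 on ILMN_2751046, where controls ran from 11.01 through 11.30 to 11.56. They were 9.73, 9.94, 9.92, 9.85 and 10.16 on ILMN_2960467, where controls ran from 9.77 through 9.90 to 10.31. The groups overlapped on both probes. The differences were -0.14 ± 0.10 and -0.029 ± 0.096 (SE; limma adjusted p = 0.875 and 0.980).

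The calcium-regulated ATP-Mg/phosphate carriers set the adenine nucleotide content of the matrix. Slc25a24 had ezetimibe levels of 6.95, 7.48, 7.33, 7.36 and 7.30 on ILMN_1213947, with controls from 6.58 through 6.93 to 7.25. In 4 ezetimibe arrays the level was above the highest control, and the first lay near the control median. The difference was 0.33 ± 0.13 (SE; limma adjusted p = 0.745). A second probe of the gene, ILMN_2841710, gave 0.18 ± 0.16, and another, ILMN_2709504, was detected on 4 arrays and was not tested. For Slc25a25, the ezetimibe levels of 7.63, 8.16, 8.10, 7.73 and 8.17 lay within the control range of 7.48 through 7.90 to 8.44, and the difference was 0.065 ± 0.16 (SE; limma adjusted p = 0.974). In this class 4 of 6 tested probes were above 0, with a median of 0.039.

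The nucleotide and cofactor carriers had 9 tested probes for 8 genes, 5 above 0 and 4 below, with a median of 0.00044. The 2 named by their p carry pyrimidine nucleotides into mitochondria and pointed opposite ways. Slc25a36 had ezetimibe levels of 8.19, 7.38, 7.47, 7.96 and 7.77 against controls from 7.79 through 7.96 to 8.60. In 3 ezetimibe arrays it was below the lowest control, and the first was among the higher controls. The difference was -0.34 ± 0.17 (SE; limma adjusted p = 0.828), and without ezetimibe array 2 it was -0.22. Slc25a33 had ezetimibe levels of 8.14, 8.06, 8.05, 8.55 and 8.26 against controls from 7.61 through 7.96 to 8.26. All 5 ezetimibe arrays were above the control median and 2 above the highest control, with a difference of 0.22 ± 0.12 (SE; limma adjusted p = 0.838). Without ezetimibe array 4, its highest, the Slc25a33 difference was 0.14. The carriers for coenzyme A (Slc25a16, Slc25a42), S-adenosylmethionine (Slc25a26) and folate or FAD (Slc25a32), and the peroxisomal carrier Slc25a17, lay between -0.21 and 0.11.

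Uncoupling proteins and their relatives were dim here. Ucp2, the uncoupling protein found widely outside brown fat and muscle, was detected on 6 and 8 of 13 arrays by its 2 tested probes. The third probe was detected in 4 of 8 control mice and in none of the 5 ezetimibe mice and was not tested. Its levels overlapped, from 4.41 to 5.037 in controls and from 4.132 to 4.725 in ezetimibe mice. On ILMN_2481182 the ezetimibe levels were 4.73, 4.94, 4.49, 4.78 and 4.60, and the controls ran from 4.34 through 4.89 to 5.63. On ILMN_2855123 they were 5.09, 4.87, 4.35, 4.77 and 5.13, and the controls ran from 4.56 through 4.86 to 5.71. Both probes overlapped between the groups and were near the limit of detection. The differences were -0.23 ± 0.18 and -0.12 ± 0.19 (SE; limma adjusted p = 0.896 and 0.951). Without control array 6, the highest on both probes, they were -0.10 and 0.0095.

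Slc25a14 and Slc25a30, brain- and kidney-known relatives of the uncoupling proteins, gave -0.021 and -0.11. All 4 tested probes of this class were below 0, with a median of -0.11, and none passed. The mean level of 4 tested T and NK cell markers, of 6 on the array, ran from 7.77 to 9.30 in controls and from 7.66 to 9.08 in ezetimibe mice, while Cd8a and Gzmb were detected on 0 arrays. All 4 were lower on average in ezetimibe mice, with a median of -0.46, and none passed the test. Ucp2 is also known from immune cells. With the T and NK cell level as a term, again added after the data were seen, the Ucp2 differences were -0.27 and -0.17. With the red cell marker level as a term they were -0.24 and -0.38. Both marker levels differed on average between the groups, so these fits cannot cleanly separate them from the group.

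Slc25a34 is a carrier without an agreed substrate. A second probe of the gene, ILMN_3129337, was detected on 3 arrays and was not tested. On ILMN_3052781 the ezetimibe levels were 8.01, 8.04, 8.22, 8.43 and 8.51, and the controls ran from 7.63 through 7.88 to 8.26. The first 2 ezetimibe arrays, on slide 1, lay among the controls, and the highest 2 were above all of them. The difference was 0.32 ± 0.12 (SE; limma adjusted p = 0.732). It was -0.0015 on slide 1 and 0.57 on slide 2. The test of that slide difference gave a limma adjusted p of 1.00, so it did not pass.

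Slide was a large term for many carriers. At an adjusted p under 0.10, 20 of the 38 tested carriers differed from slide to slide, 11 lower and 9 higher on slide 2. That is 52.6% of them, beside 53.3% of all tested probes. The differences ran from -1.11 to 0.56 log2 units. Probes of a single gene went opposite ways. For Slc25a11, slide 2 minus slide 1 was -1.08 ± 0.18, -0.80 ± 0.10 and 0.41 ± 0.07 on its 3 probes (SE; all 3 past the limma threshold). For Slc25a38 it was 0.49 ± 0.10, -0.98 ± 0.17 and 0.27 ± 0.08, again all past the threshold. For Slc25a3 both probes were lower on slide 2, by -1.11 ± 0.10 and -0.45 ± 0.09.

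The raw signals show the size of this shift. On the Slc25a11 probe ILMN_3010109 the slide 1 signals were 840.4, 1138.9, 1108.3 and 1021.3 in controls and 799.4 and 963.6 in ezetimibe arrays. On slide 2 they were 359.1, 349.2, 385.9 and 307.9 in controls and 406.1, 421.4 and 430.2 in ezetimibe arrays. In raw signal the slides did not overlap for this probe, and both groups shifted together. Raw signals of Slc25a5 did not overlap either, with 19876.9 the lowest on slide 1 and 15170.2 the highest on slide 2. After normalization its slide difference was only -0.10 ± 0.06 (SE). In the authors' deposited processed values, which were batch-corrected, 0 of the 38 carriers differed between slides, beside 3 of all 11887 tested probes. If slide was the batch, the correction itself removes such differences, so these counts tell nothing about the carriers. Slide is known here only from the array names, and anything else shared by the arrays of a slide cannot be told apart from it.

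**Figure D4:**
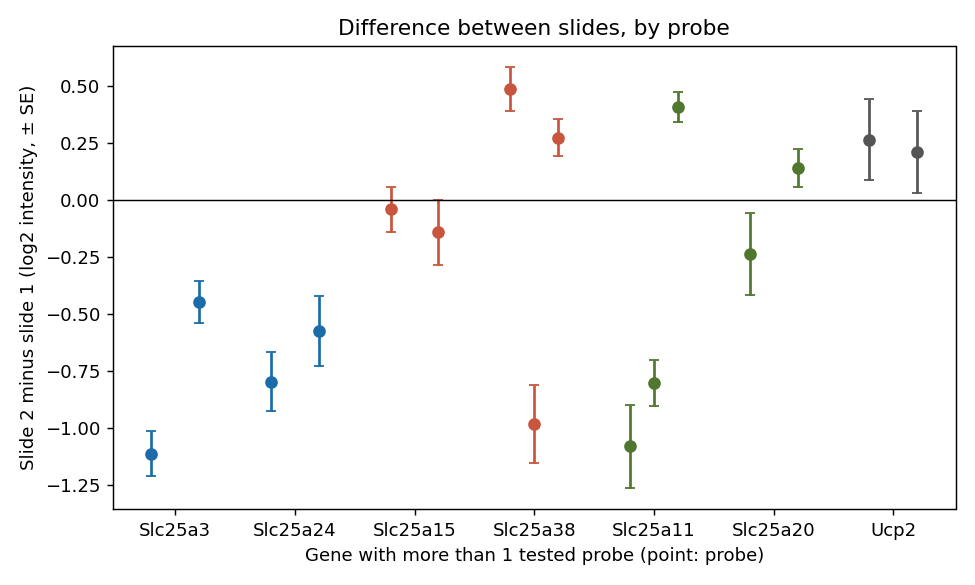
Difference between slides (slide 2 minus slide 1, log2 intensity, ± SE) for each tested probe of the carrier genes reported here with more than 1 tested probe. Points of Slc25a11 and Slc25a38 lie on both sides of 0, from -1.08 to 0.49, while both Slc25a3 points lie below 0.

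Exocrine pancreas RNA varied widely from mouse to mouse. Averaged over 16 pancreas markers, the slide-adjusted level ran from 5.97 in a control array to 12.83 in an ezetimibe array. No carrier followed that level at an adjusted p under 0.10, where 0.261% of tested probes did, 0.253% upward and 0.00842% downward. The smallest p belonged to Slc25a30, with 0.106 ± 0.033 log2 units per log2 unit of the marker level (SE; limma adjusted p = 0.822), 0.146 within slide 1 and 0.0988 within slide 2. Slc25a3 and Slc25a39 followed with slopes of -0.035 and -0.030, and a probe of Slc25a38 with 0.060 (limma adjusted p = 1.00 for these 3). 

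Genes that work beside the carriers were tested too, each by its brightest tested probe. Of 36 related genes tested, none rose or fell by the adjusted limma test. Among all tested probes 0.252% did, so a count of 0 among 36 is near that background. Before adjustment, 4 of them (11.1%) had a p under 0.05, beside 6.18% of all tested probes, and the median log2 fold change was 0.021. The import machinery that inserts carriers into the inner membrane had 7 tested genes with a median of -0.044. Other mitochondrial membrane transporters had 12 tested genes with a median of 0.094. Among them, the outer membrane channel Vdac1 gave 0.27 ± 0.09 and the porphyrin transporter Abcb6 0.30 ± 0.11 (SE; limma adjusted p = 0.619 and 0.732).

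The 6 tested enzymes of the malate-aspartate shuttle and glutamate metabolism had a median of 0.038, and mitochondrial aspartate aminotransferase, Got2, gave 0.0035 ± 0.071. Of the 7 citrulline and ornithine enzymes, ornithine aminotransferase, Oat, gave -0.38 ± 0.15 (SE; limma adjusted p = 0.734). Cps1, which makes carbamoyl phosphate, gave -0.074 ± 0.12. The 4 tested genes of the carnitine shuttle were all above 0, with a median of 0.070. The plasma membrane carnitine transporter Slc22a5 gave 0.21 ± 0.09 (SE; limma adjusted p = 0.755), and Cpt2, which returns acyl groups to coenzyme A in the matrix, gave 0.070 ± 0.073.

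The citrate carrier Slc25a1, which exports citrate for fatty acid and sterol synthesis and was kept apart from the family above, passed the threshold. It was higher in ezetimibe mice by 0.40 ± 0.07 on 1 probe (SE; limma adjusted p = 0.0244), and its other probe gave 0.21 ± 0.13 (limma adjusted p = 0.861). The difference between Slc25a1 and the other carriers was not tested. Another 3 probes belong to the family under current symbols but carry other names in the table. Of these, the probe of Slc25a47 was detected on 12 arrays, that of Slc25a48 on 1 and that of Slc25a53 on 0, and they were not counted as members.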

How the data were processed

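Per the series' own text, the authors hybridised labelled cRNA to MouseRef-8 v2.0 arrays, then applied quantile normalization, Combat batch correction, a 1.1-fold prefilter and an intensity-based moderated test at a false discovery rate of 10%. Per the file headers, the deposited unnormalized table holds, per probe, the signal intensity on every array with its detection p-value. The authors' deposited processed values are linear intensities with column medians from 236.09 to 236.297; how they were centred is not stated, and they served as an alternative. The unnormalized intensities were taken through neqc (limma 3.58.1, R 4.3.3; normal-exponential background correction with negative controls inferred from the detection p-values, offset 16, quantile normalization, log2). A probe was tested where 5 or more of the 13 arrays gave a detection p under 0.05, which left 11887. Group and slide were the terms of the lmFit model, eBayes used an intensity trend, and p-values were adjusted by Benjamini-Hochberg over all tested probes, with a threshold of 0.10. A further fit added the mean level of the pancreas markers. Groups came from the sample labels and slides from the array names. Arrays were counted as independent; where mice shared a cage or litter is not known, and p-values measure the spread between these arrays. The procedure was run on simulated data with independent noise and planted changes larger than any carrier difference here. That run does not bear on changes of the size seen. Probe symbols were brought up to date through RefSeq gene names (GRCm38.p6), where 20439 probes had a current symbol, 4135 were renamed and 1123 kept the file's name. For related and marker genes with several tested probes, the probe with the highest mean level was used. Of the family, 1 gene enters the counts and is not reported by name here. The members and lists were chosen with earlier results of these data known. Full values are given for the 8 tested members with the smallest p, for a fixed set of 14 genes and for the 4 members with the smallest p for the pancreas level; any past the threshold would have been added. Alternatives changed the background correction, scaling, filter, slide term, position, replicate block, weights, threshold and prefilter, and left out each array in turn.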

Additional observations from a re-analysis of the deposited data

Results flagged for a closer look

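In 4 of 76 groups, 1 array stood far from the others of its group by Dixon's criterion for the highest or lowest value, which is 5.26% of the groups examined, where chance gives about 5%. On the Slc25a11 probe ILMN_3010109, ezetimibe array 5 had a slide-adjusted level of 9.208, with the next at 8.908. For Slc25a26, the S-adenosylmethionine carrier, ezetimibe array 3 had 7.059, with the next at 6.776. On the Slc25a3 probe ILMN_2960467, control array 2 had 10.31, with the next at 10.02. On the Ucp2 probe ILMN_2855123, control array 6 had 5.712, with the next at 5.099. The 4 values came from 4 different arrays and were all the highest of their group.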

How the results depend on the processing

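The count of carriers that rose or fell stayed at 0 under all 34 alternatives, and the count that followed the pancreas level at 0 under the 22 run for it. Among the 34, the stricter threshold of 0.05 could not raise the count. Slide 1 alone, with 4 control and 2 ezetimibe arrays, had little power to do so. Slc25a44 ranged from 0.22, with the erythroid level as a term, to 0.61 under median scaling, and Slc25a37 from 0.15 to 0.46, and their lowest adjusted p was 0.106 and 0.133, both with the 1.1-fold prefilter. The number of all probes that changed, 30, became 17 without a slide term, 6 on slide 1 alone, 10 on slide 2 alone, 81 with the prefilter and 13 with the erythroid level, added after seeing the data. The median of the carriers was 0.077 under median scaling, where that of all probes was 0.088. Whether replicate numbers pair the arrays was not settled. Same-numbered residuals correlated from -0.42 to 0.36, over 0.1 in 2 of 5 pairs, and differently numbered pairs were not compared. Signs were followed over the alternatives only for the carrier probes with full values. Some of the remaining carriers turned sign as well, such as Slc25a28, which gave 0.026 on slide 1 alone. With the replicate block 23 probes changed, and 5 of the carrier probes with full values turned sign: 0.12 (Slc25a11, ILMN_3010109), 0.089 (Slc25a15, ILMN_2643032), 0.18 (Slc25a20, ILMN_3061070), -0.24 (Slc25a38, ILMN_2946901) and 0.042 (Ucp2, ILMN_2855123). The other values of these followed probes that turned sign, none of them called, were these. Median scaling gave 0.072 and 0.040 (Slc25a11), 0.11 (Slc25a15), 0.098 (Slc25a20), 0.0087 and 0.12 (Slc25a3). Slide 1 alone gave 0.37 (Slc25a20), -0.031 (Slc25a25), 0.066 (Slc25a30), -0.0015 (Slc25a34), -0.061 (Slc25a38), -0.021 (Slc25a5) and 0.085 (Ucp2). Slide 2 alone gave -0.012 (Slc25a10) and 0.071 (Slc25a3). No slide term gave -0.039 (Slc25a25), -0.0097 (Slc25a38) and -0.028 (Slc25a39). Array position on the slide as a term gave -0.10 (Slc25a25), -0.018 (Slc25a39) and -0.035 (Slc25a5), and array weights -0.0040 (Slc25a5). Slc25a20 ILMN_3061070 gave 0.0014 without background correction and with the pancreas level, and 0.011 and 0.012 in the processed values without and with slide. The erythroid level gave 0.091 (Slc25a11), 0.035 (Slc25a20) and 0.012 (Slc25a3), and the T and NK level 0.031, 0.033 and 0.051 for the same genes. Leaving out 1 array at a time gave -0.019 to 0.084 (Slc25a10), -0.11 to 0.032 (Slc25a15), -0.18 to 0.16 (Slc25a20), -0.0074 to 0.17 (Slc25a25), -0.089 to 0.031 (Slc25a3), -0.25 to 0.019 (Slc25a30), -0.015 to 0.046 (Slc25a5) and -0.20 to 0.0095 (Ucp2). The cause was not tested for any of these. Dim probes such as those of Ucp2 and Slc25a30, detected on 6 to 8 arrays, limit what can be seen of their change.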
